A study of Homo sapiens with 8 samples.

Results

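The 10 genes described here encode the SMC ATPases and some of their partners in the ring complexes that fold and hold chromosomes. They are SMC2, SMC4, NCAPG and NCAPD2 of condensin, SMC1A, SMC3, RAD21 and STAG2 of cohesin, and SMC5 and SMC6 of the SMC5/6 complex, and they were found by symbol among the 58302 genes of the deposited count table. SMC5 was chosen by its read counts, being among the higher genes of a senescence list in the same comparison, so its difference between groups is given as a description, without a test. The other 9 genes were listed for their family. RNA sequencing was performed on DLD1 cells, a human colorectal cancer line, with stable overexpression of wild-type TRMT6/61A (OE-WT, labelled as TRMT6/TRMT61A overexpression) or with the vector (CTRL, labelled WT genotype and Control treatment). The constructs were delivered by lentivirus, and the sources used here do not say whether each line was 1 clone or a pool. Each group had 2 libraries. The series' design text speaks of separate groups for the 2 overexpressed genes, whereas the sample labels give 1 combined group.

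SMC proteins are long coiled-coil ATPases that pair at a hinge and are closed into a ring by a kleisin subunit. Condensin loops and compacts chromosomes for mitosis, cohesin forms interphase loops and holds sister chromatids together until anaphase, and SMC5/6 acts in DNA repair, in the resolution of joined chromatids and in the silencing of some viral genomes. In proliferating cells such as colorectal cancer cells, transcripts of several condensin subunits rise toward G2 and mitosis, and several cohesin regulators are also tied to the cell cycle.

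The promoter windows of NCAPG, SMC4 and SMC1A are shown because these 3 genes differed between the groups by the test, that of SMC5 because its value chose it, and that of NCAPD2 because it is the most abundant of the 10 genes and did not pass the test. For SMC4 and SMC1A, which have 2 windows each, the one holding a motif is shown, and the other held none. Each window runs from 250 bases before to 50 bases after a RefSeq transcript start (GRCh38.p14) and is written 5′ to 3′ on the strand of the gene. The windows are chr4:17810729-17811028 (plus strand) for NCAPG, chr3:160399400-160399699 (plus strand) for SMC4, chrX:53422605-53422904 (minus strand) for SMC1A, chr9:70258728-70259027 (plus strand) for SMC5 and chr12:6493852-6494151 (plus strand) for NCAPD2. Capitals mark 4 motifs read on both strands, which are CCAAT (the NF-Y box), TTTGAA (the CHR element of genes of G2 and mitosis) and the E2F forms TTGGCGC and TTCCCGC. The first of these E2F forms can share 4 bases with the reverse complement of the NF-Y box.
NCAPG: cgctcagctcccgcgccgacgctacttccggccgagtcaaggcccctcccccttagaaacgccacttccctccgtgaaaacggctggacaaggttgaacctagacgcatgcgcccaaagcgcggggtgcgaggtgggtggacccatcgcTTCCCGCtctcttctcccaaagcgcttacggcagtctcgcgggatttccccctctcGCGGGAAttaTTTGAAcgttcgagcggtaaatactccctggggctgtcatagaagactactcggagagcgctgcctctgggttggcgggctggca
SMC4: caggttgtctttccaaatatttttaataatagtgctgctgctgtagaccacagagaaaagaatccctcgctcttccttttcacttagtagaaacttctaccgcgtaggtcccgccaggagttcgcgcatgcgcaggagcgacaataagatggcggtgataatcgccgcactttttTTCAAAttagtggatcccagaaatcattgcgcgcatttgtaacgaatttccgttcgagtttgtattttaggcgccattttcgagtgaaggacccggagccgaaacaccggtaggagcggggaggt
SMC1A: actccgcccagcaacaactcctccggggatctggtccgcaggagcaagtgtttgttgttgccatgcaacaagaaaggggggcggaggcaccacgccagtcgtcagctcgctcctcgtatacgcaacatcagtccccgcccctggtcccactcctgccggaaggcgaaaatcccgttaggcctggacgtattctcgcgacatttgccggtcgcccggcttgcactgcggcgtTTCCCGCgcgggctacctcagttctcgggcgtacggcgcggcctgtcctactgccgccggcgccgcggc
SMC5: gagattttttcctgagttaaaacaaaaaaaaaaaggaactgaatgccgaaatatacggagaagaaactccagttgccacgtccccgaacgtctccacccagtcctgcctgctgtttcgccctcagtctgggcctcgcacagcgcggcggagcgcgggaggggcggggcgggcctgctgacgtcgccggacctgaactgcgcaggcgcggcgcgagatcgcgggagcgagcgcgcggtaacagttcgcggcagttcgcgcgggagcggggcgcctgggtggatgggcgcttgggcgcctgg
NCAPD2: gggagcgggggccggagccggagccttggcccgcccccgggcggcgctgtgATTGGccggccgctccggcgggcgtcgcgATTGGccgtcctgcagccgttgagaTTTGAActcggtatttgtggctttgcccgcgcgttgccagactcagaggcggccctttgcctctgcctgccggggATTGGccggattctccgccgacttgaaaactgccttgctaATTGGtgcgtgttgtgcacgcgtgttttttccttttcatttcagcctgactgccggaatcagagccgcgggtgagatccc

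The table of promoters held 14 windows for 9 of the 10 genes, and RAD21 was not matched. TTTGAA was found in 5 of these 14 windows, 1 each of SMC2, SMC3, SMC4, NCAPG and NCAPD2, and in 15.2% of the 35116 windows of all genes. In NCAPG, TTTGAA began at position -35 from the start, and TTCCCGC, read on the opposite strand, began at position -45, with a further copy at position -101. TTCCCGC was found in 2 of the 14 windows, those of NCAPG and SMC1A, and in 6.55% of all windows. CCAAT was found in 3 windows, 1 of NCAPD2 and 2 of STAG2, against 34.6% of all windows, and NCAPD2 had 4 copies. TTGGCGC was found in 1 window, of STAG2, against 3.04% of all windows. The SMC5 window held none of the 4 motifs. These matches are descriptions of letters, not of binding.

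The counts on genes summed to between 10327498 and 12379671 per library. TRMT6 rose from 54.0 ± 1.99 to 196 ± 21.1 CPM (counts scaled to a common library total with TMM factors) and TRMT61A from 57.9 ± 1.48 to 134 ± 5.02 (SD, n = 2 libraries), so both overexpressed genes were higher in the group labelled with them. All 8 epithelial markers were detected, at 0.688 to 6110 CPM. Of these, 3 were called lower in OE-WT (log2 fold changes of -1.52 for KRT20, -1.33 for CEACAM5 and -0.29 for CDH1) and 2 higher (0.25 for KRT8 and 0.30 for KRT18), and their part in the results was not tested. The calls of CEACAM5, KRT8 and KRT18 were lost in some other analyses or with some libraries left out. Among markers of leukocytes, fibroblasts and endothelium, 5 of 7 had at most 3 counts in every library, and COL1A1, a fibroblast gene, had 18 to 22. The 7 markers summed to 2.46 and 3.03 CPM in OE-WT and to 2.68 and 3.81 in CTRL. VWF, an endothelial gene, drew 5 and 6 reads under OE-WT, against 30 and 14 under CTRL. It was called lower in OE-WT (log2 fold change -1.65), a call lost with some libraries left out. Genes were tested with edgeR's quasi-likelihood test and Benjamini-Hochberg adjustment over the 14133 genes that passed the filter on low counts. At an adjusted p below 0.05, 21.1% of these genes were called, 9.44% higher and 11.6% lower in OE-WT. With 2 libraries on each side, exact permutation (two-sided) reaches 0.333 at best, and all p-values printed are those of the model. The design text describes duplicate cultures per group. In bulk RNA, fewer cells of a type or cycle phase and less RNA per cell cannot be told apart.

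Of the 10 genes, 9 passed the filter, and SMC6 did not. Without SMC5, 3 of the 8 remaining genes were called higher in OE-WT cells (SMC4, NCAPG and SMC1A) and 0 lower, beside 9.44% and 11.6% of all genes tested. At an unadjusted p below 0.05, 4 of the 8 passed, the fourth being RAD21, beside 33.8% of all genes. DESeq2's Wald test called 1 of the 8, beside 9.74% of all genes. The median log2 fold change of these 8 genes was 0.35, against 0.01 for all genes tested. No gene of the 10 that was tested passed the thresholds of the paper (log2 fold change beyond 1 in either direction, with p under 0.05 before adjustment) in edgeR's test, thresholds that 3.15% of all genes passed. Both OE-WT libraries lay above both CTRL libraries for 4 of these 8 genes (SMC1A, SMC2, SMC4 and NCAPG), as they did for 29.9% of all genes tested, and 0 of the 8 lay below, against 30.2% of all genes. The choice of the list was made with earlier results known, so these counts support no statement about the family.

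**Figure D1:**
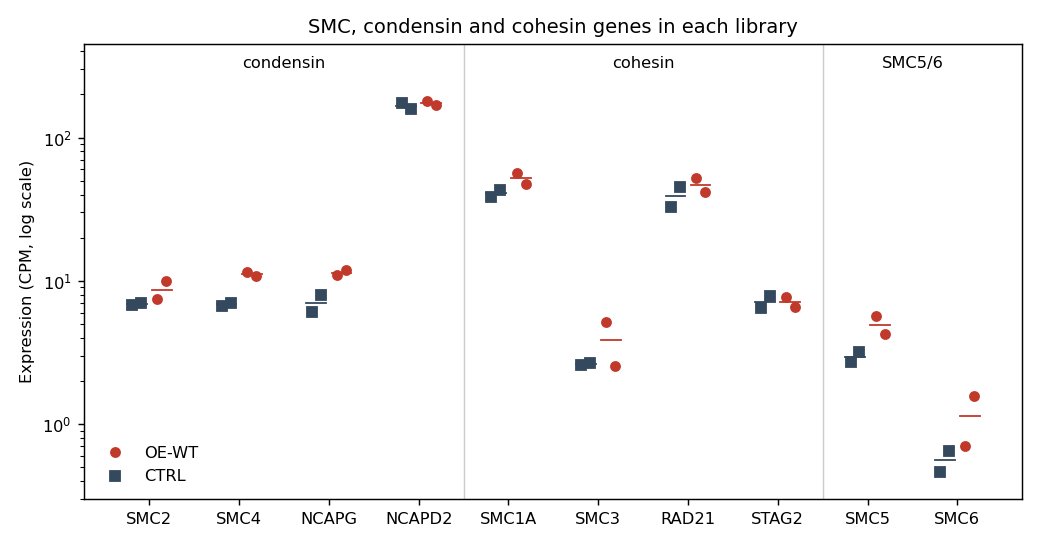
Expression of the 10 genes in each library, in CPM on a log axis, with circles for OE-WT, squares for CTRL and a short line at the mean of 2 libraries. NCAPD2 lies at 159 to 179 CPM and SMC6 between 0.466 and 1.57. Both OE-WT libraries lie above both CTRL libraries for SMC1A, SMC2, SMC4, SMC5, SMC6 and NCAPG. The same held for 29.9% of all genes tested, and SMC6 was not tested.

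The condensin ATPase SMC4, which pairs with SMC2, gave the lowest adjusted p of the 8 genes tested beside SMC5. It had 11.6 and 10.8 CPM under OE-WT, against 6.68 and 6.98 CPM under CTRL. The groups did not overlap, and the libraries within a group differed by little. OE-WT exceeded CTRL by 0.71 on the log2 scale (standard error, SE, 0.16, edgeR adjusted p 0.0034), a 1.64-fold higher level. The call held in all 8 other analyses of the 4 libraries and with each library left out in turn, where the log2 fold change ran from 0.67 to 0.75. SMC4 (chromosome 3, 160399274 to 160434954, plus strand) overlaps TRIM59 on the other strand by 1553 exonic bases. TRIM59 had 13.8 ± 0.524 CPM in OE-WT and 12.4 ± 0.744 in CTRL (SD, n = 2), with a log2 fold change of 0.16 (SE 0.14). The library kit is described as stranded and the strand setting of the counting is not given in the sources used here, so reads of the 2 genes in that stretch may not be separate.

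NCAPG, a HEAT-repeat subunit found in condensin I, had 10.9 and 11.8 CPM under OE-WT, against 6.06 and 7.96 CPM under CTRL. Both OE-WT values were above both CTRL values, and the CTRL libraries were the more scattered. On the log2 scale the difference came to 0.70 (SE 0.17, edgeR adjusted p 0.0059). Without CTRL replicate 1 it was 0.51 with an adjusted p of 0.097 from the same test, and with DESeq2's Wald test the adjusted p was 0.055. NCAPG (chromosome 4, 17810979 to 17844865, plus strand) shares 1634 exonic bases with LCORL on the other strand, which had 5.28 ± 0.374 CPM in OE-WT and 4.13 ± 0.0981 in CTRL (SD, n = 2).

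SMC2, the other ATPase of condensin, had 7.45 and 9.93 CPM under OE-WT, against 6.76 and 6.98 CPM under CTRL. The groups did not overlap, but the OE-WT libraries lay farther apart than the group means. By log2 ratio OE-WT over CTRL was 0.34 (SE 0.18) with an adjusted p of 0.20 from edgeR's quasi-likelihood test, so the difference did not pass. It was 0.54 without OE-WT replicate 1 and 0.11 without OE-WT replicate 2. SMC2 lies on chromosome 9 (104094260 to 104141419, plus strand).

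NCAPD2, the other HEAT-repeat subunit of condensin I, was the most abundant of the 10 genes. It had 179 and 170 CPM under OE-WT, against 174 and 159 CPM under CTRL, and the groups overlapped. It alone held between 53.12% and 62.71% of the counts of the 10 genes in a library. OE-WT stood 0.07 above CTRL in log2 units (SE 0.07, edgeR adjusted p 0.52), with a 95% interval from -0.06 to 0.20, and the value was -0.02 with library size alone as the scaling. NCAPD2 (chromosome 12, 6493356 to 6531955, plus strand) overlaps MRPL51 on the other strand by 383 exonic bases, and MRPL51 had 99.6 ± 2.06 CPM in OE-WT and 98.5 ± 1.84 in CTRL (SD, n = 2).

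Among the cohesin genes, SMC1A, which encodes the ATPase that pairs with SMC3, was called higher. It had 56.6 and 47.6 CPM under OE-WT, against 38.5 and 42.9 CPM under CTRL. Both OE-WT libraries were above both CTRL libraries, with a gap smaller than the spread inside the OE-WT group. The fitted log2 difference was 0.36 (SE 0.09, edgeR adjusted p 0.0082), a 1.28-fold difference. The adjusted p was 0.067 with DESeq2's Wald test, 0.15 without OE-WT replicate 1, where the log2 difference was 0.23, and 0.068 without CTRL replicate 1, where it was 0.28, in edgeR's test. SMC1A lies on chromosome X (53374149 to 53422728, minus strand) and overlaps RIBC1 on the other strand by 39 exonic bases, a gene with at most 3 counts in any library.

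SMC3, its partner ATPase and the target of the acetylation that makes cohesin cohesive, had few counts. The OE-WT libraries had 51 and 26 counts, or 5.14 and 2.56 CPM, and the CTRL libraries 33 each, or 2.57 and 2.68 CPM. OE-WT replicate 1 was high and OE-WT replicate 2 was level with CTRL. In log2 units OE-WT lay 0.55 above CTRL (SE 0.30, edgeR adjusted p 0.20). It was -0.03 without OE-WT replicate 1 and 0.96 without OE-WT replicate 2, where the adjusted p was 0.016, so 1 library decided the value. SMC3 lies on chromosome 10 (110567684 to 110606048, plus strand).

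RAD21, the kleisin that closes the cohesin ring and is cut by separase at anaphase, had 52.5 and 41.5 CPM under OE-WT, against 33.0 and 45.2 CPM under CTRL. The groups overlapped. OE-WT over CTRL came to 0.27 in log2 units (SE 0.12, edgeR adjusted p 0.12). It was 0.05 without CTRL replicate 1 and 0.09 without OE-WT replicate 1. Without CTRL replicate 2 it was 0.51 (edgeR adjusted p 0.00015) and without OE-WT replicate 2 it was 0.42 (edgeR adjusted p 0.0012), so the call turned on which library was left out. RAD21 shares 576 exonic bases with UTP23 and 271 with RAD21-AS1 on the other strand, and these had at most 102 and 8 counts in a library.

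STAG2, the cohesin subunit most used in somatic cells beside STAG1, had 7.66 and 6.58 CPM under OE-WT, against 6.45 and 7.87 CPM under CTRL. The ranges of the 2 groups lay on top of each other. The groups differed by a fitted log2 ratio of -0.01 (SE 0.19, edgeR adjusted p 0.98), with a 95% interval from -0.37 to 0.36. STAG2 (chromosome X, 123960212 to 124422664, plus strand) was the 1 tested gene of the 10 with a log2 fold change below 0.

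SMC5 and SMC6 form the ATPase pair of the SMC5/6 complex. SMC5 drew 56 and 43 reads under OE-WT, against 35 and 39 under CTRL, or 5.64, 4.23, 2.72 and 3.17 CPM. The groups did not overlap, and its log2 fold change of 0.74 (SE 0.24) was the highest of the 9 genes tested, which is the value that put it on the list. It was 0.53 without OE-WT replicate 1 and 0.93 without OE-WT replicate 2. SMC5 lies on chromosome 9 (70258978 to 70354873, plus strand).

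SMC6 (chromosome 2, 17663812 to 17800242, minus strand) drew 7 and 16 reads under OE-WT, against 6 and 8 under CTRL, or 0.705, 1.57, 0.466 and 0.649 CPM. OE-WT replicate 2 stood above the other 3 libraries, which lay close together, with OE-WT replicate 1 just above the CTRL libraries. SMC6 was not tested in the filtered table. With the filter lifted to admit any gene with a read, its log2 fold change was 1.01 (SE 0.50, edgeR adjusted p 0.296), and the difference was not detectable at this depth. SMC6 shares 107 exonic bases with GEN1 on the other strand, which had 21 to 26 counts.

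**Figure D2:**
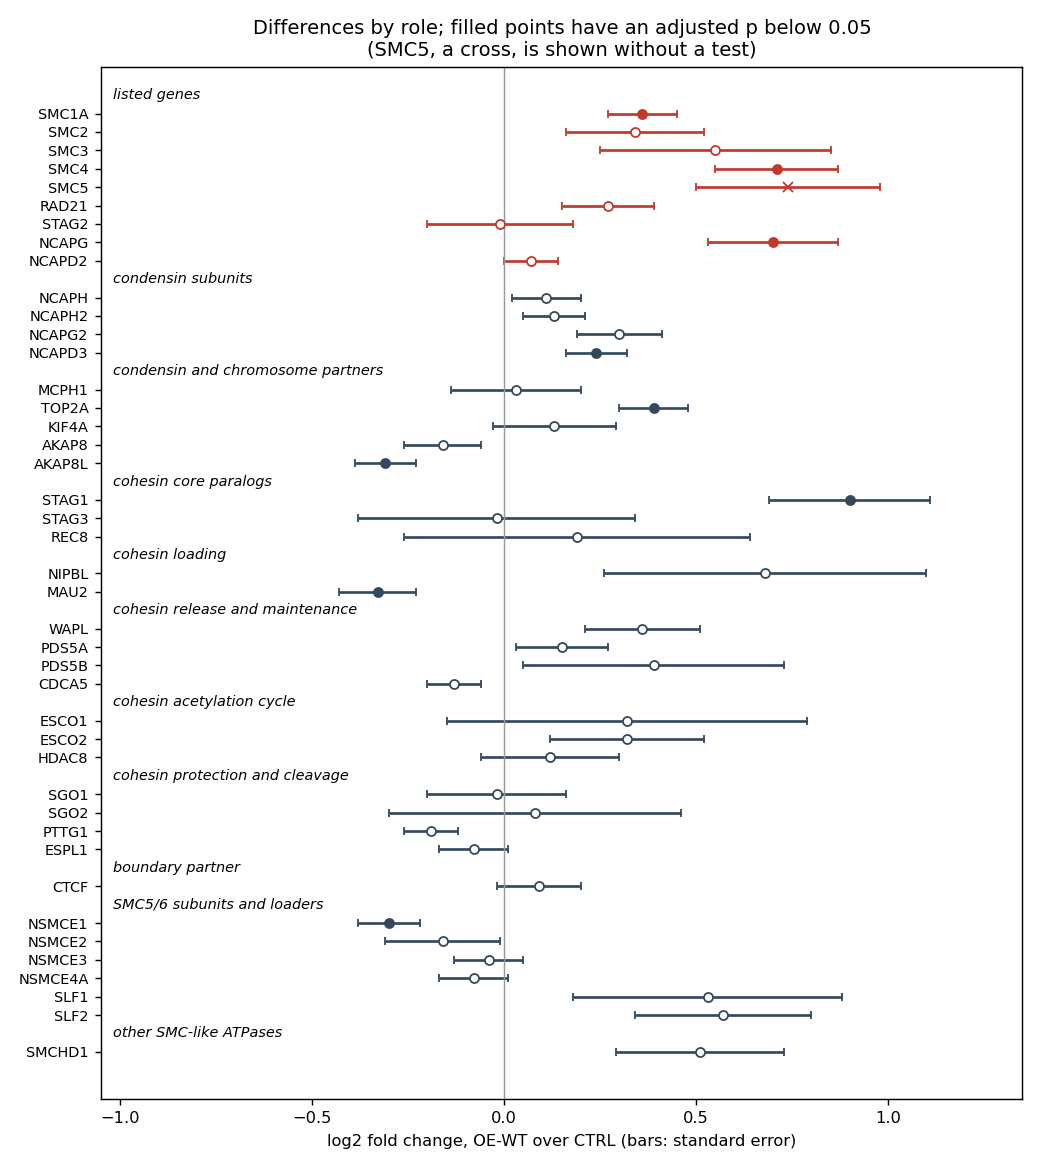
The log2 fold change of OE-WT over CTRL, with bars for 1 SE, for the 9 tested genes of the list (top, red) and 33 tested genes of the same pathways by role; filled points have an adjusted p below 0.05 and SMC5 is drawn as a cross without a test. STAG1 (0.90), SMC4 (0.71) and NCAPG (0.70) lie highest among the filled points, and MAU2 (-0.33), AKAP8L (-0.31) and NSMCE1 (-0.30) lie lowest.

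The other genes of these pathways were taken from lists by role, of 37 genes in all. Of the 33 tested, 3 were called higher and 3 lower, beside 9.44% and 11.6% of all genes tested, and their median log2 fold change was 0.12. Among the 4 other condensin subunits 1 was called, the condensin II subunit NCAPD3, which had 57.2 ± 2.52 CPM in OE-WT and 48.4 ± 0.258 in CTRL (SD, n = 2; log2 fold change 0.24, SE 0.08, edgeR adjusted p 0.031). That call was lost in 5 of the 8 other analyses of the 4 libraries, where the adjusted p reached 0.25, and it was lost without OE-WT replicate 2 and without either CTRL library. NCAPG2, the condensin II counterpart of NCAPG, had a log2 fold change of 0.30 (SE 0.11, edgeR adjusted p 0.053), NCAPH2, its kleisin, had 0.13 (SE 0.08), and NCAPH, the kleisin of condensin I, had 0.11 (SE 0.09). NCAPH2 reached 0.28 with a GC trend removed (edgeR adjusted p 0.024). NCAPG2 passed with a length trend removed (edgeR adjusted p 0.048) and, at 0.38, without CTRL replicate 2 (edgeR adjusted p 0.043).

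Among 5 condensin and chromosome partners, TOP2A was called higher and AKAP8L lower. TOP2A, the topoisomerase that untangles chromosomes, had 43.7 and 44.3 CPM in OE-WT and 32.6 and 34.5 in CTRL (log2 fold change 0.39, SE 0.09, edgeR adjusted p 0.0024). This call held in all 8 other analyses and with each library left out. AKAP8L, a nuclear anchoring protein, had 37.7 ± 0.957 CPM in OE-WT and 46.8 ± 1.49 in CTRL (SD, n = 2; log2 fold change -0.31, edgeR adjusted p 0.011), and its adjusted p was 0.20 with a GC trend removed, 0.11 with DESeq2's Wald test, 0.070 without OE-WT replicate 1 and 0.075 without CTRL replicate 1.

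STAG1, the paralog of STAG2, rose by the most of the pathway genes. It drew 83 and 66 reads under OE-WT, against 47 and 53 under CTRL, or 7.42 ± 1.33 and 3.98 ± 0.459 CPM (SD, n = 2). The groups did not overlap, with a 1.86-fold higher level in OE-WT (log2 fold change 0.90, SE 0.21, edgeR adjusted p 0.0038). The call was lost without OE-WT replicate 1 (0.71, edgeR adjusted p 0.052). The meiotic paralogs had few counts, and SMC1B and RAD21L1 did not pass the filter. SMC1B had 0 to 3 counts and RAD21L1 0 or 1, STAG3 had 12 to 23 counts with a log2 fold change of -0.02 (SE 0.36), and REC8 had 9 to 14 counts.

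The cohesin loader consists of NIPBL and MAU2. MAU2 was called lower, at 23.8 ± 2.74 CPM in OE-WT and 29.9 ± 0.0164 in CTRL (SD, n = 2; log2 fold change -0.33, SE 0.10, edgeR adjusted p 0.028), and the call was lost in 3 of the 8 other analyses and in 3 of the 4 in which a library was left out, the exception being the one without OE-WT replicate 1. NIPBL drew 22 and 10 reads under OE-WT, against 13 and 12 under CTRL and was not called (log2 fold change 0.68, SE 0.42). Its value was -0.01 without OE-WT replicate 1 and 1.14 without OE-WT replicate 2, so 1 library decided it. Of the 4 genes of release and maintenance, the 3 of the acetylation cycle, the 4 of protection and cleavage and the boundary factor CTCF, 0 were called by edgeR's quasi-likelihood test. Of these 12 genes, 2 had an unadjusted p below 0.05, namely WAPL (log2 fold change 0.36, SE 0.15), which releases cohesin, and PTTG1 (-0.19, SE 0.07), the separase inhibitor securin, beside 33.8% of all genes, and DESeq2 called 0. PTTG1 was called lower with library size alone as the scaling (-0.28, edgeR adjusted p 0.012), without OE-WT replicate 2 (-0.27, edgeR adjusted p 0.016) and without CTRL replicate 2 (-0.26, edgeR adjusted p 0.023).

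The 6 tested partners of SMC5 and SMC6 had a median log2 fold change of -0.06, and 1 was called, the ring-finger subunit NSMCE1. It had 40.4 ± 1.19 CPM in OE-WT and 49.8 ± 1.45 in CTRL (SD, n = 2; log2 fold change -0.30, SE 0.08, edgeR adjusted p 0.011). Its adjusted p was 0.11 with DESeq2's Wald test, 0.081 without OE-WT replicate 1 and 0.078 without CTRL replicate 1. The other core subunits did not pass, with log2 fold changes of -0.16 for NSMCE2 (SE 0.15), which carries the SUMO ligase, -0.04 for NSMCE3 (SE 0.09) and -0.08 for NSMCE4A (SE 0.09), the kleisin. The loading factors SLF1 and SLF2 had values of 0.53 (SE 0.35) and 0.57 (SE 0.23) and did not pass either, and that of SLF1 ran from 0.15 without OE-WT replicate 1 to 0.90 without CTRL replicate 2. Of the SMC-like ATPases, SMCHD1 had a log2 fold change of 0.51 (SE 0.22, edgeR adjusted p 0.11). It was 0.22 without CTRL replicate 1 and 0.85 without CTRL replicate 2, where it passed (edgeR adjusted p 0.023). RAD50, a subunit of the MRN break-repair complex, had 2 to 4 counts in each library and was not tested.

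Levels of the 10 genes were set side by side per length, as CPM per kilobase of the union of exons, averaged over the 4 libraries. NCAPD2 stood at 26.3, SMC1A at 4.28, RAD21 at 2.99, NCAPG at 1.89, SMC2 at 1.20, SMC4 at 1.10, SMC5 at 0.596, STAG2 at 0.447, SMC3 at 0.209 and SMC6 at 0.0864. Neighbours in this order had overlapping ranges over the 4 libraries, except NCAPD2 and SMC1A, STAG2 and SMC3, and SMC3 and SMC6. Per kilobase of the longest transcript the values were 35.3 for NCAPD2, 4.67 for SMC1A, 5.18 for RAD21, 2.00 for NCAPG, 1.30 for SMC2, 1.68 for SMC4, 0.662 for SMC5, 1.04 for STAG2, 0.49 for SMC3 and 0.162 for SMC6, which exchanges SMC1A with RAD21, SMC2 with SMC4 and SMC5 with STAG2. The highest and the lowest gene stayed in place under both lengths.

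The plot of level against GC content shows a property that the rule did not use. Of the 10 genes, 8 had a GC content below 40% in their longest transcript, from 36.0% for RAD21 to 38.7% for NCAPG, and the other 2 were SMC1A (47.2%) and NCAPD2 (51.6%). These 2 were also the 2 highest per kilobase of exons, but per kilobase of the longest transcript RAD21 (5.18) stood above SMC1A (4.67). Across the 10 genes, which share their libraries, GC content and the log2 level had a Pearson's r of 0.735 and a Spearman's rho of 0.401. With the longest transcripts as lengths, these were 0.732 and 0.274. Of the 14051 tested genes with a known GC content, 2221 lay below 40%. The median level was 1.37 CPM per kilobase below 40% GC, 2.51 from 40% to 50% and 4.55 at 50% or above.

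**Figure D3:**
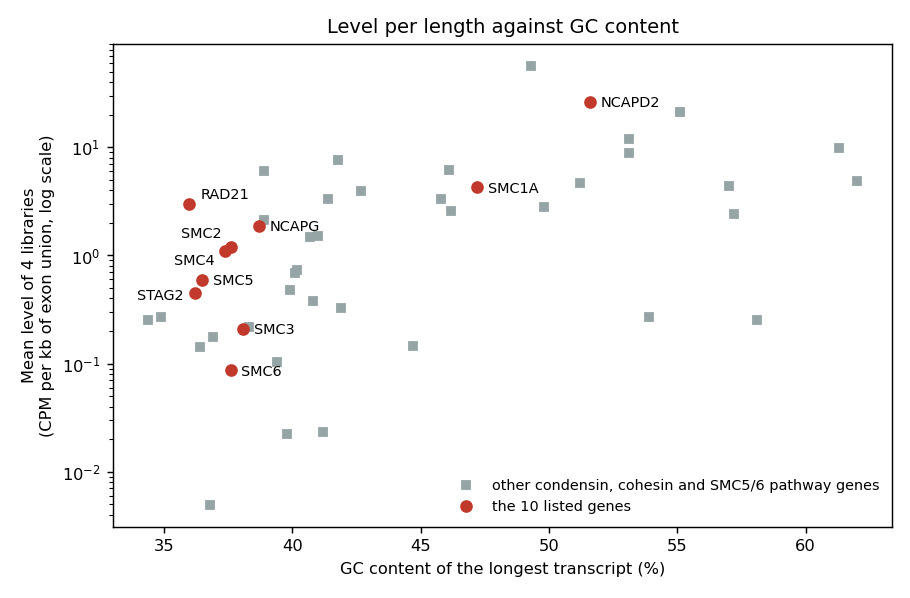
Mean level of 4 libraries, in CPM per kilobase of exon union on a log axis, against the GC content of the longest transcript, for the 10 genes (red, named) and the other pathway genes (grey). The 8 genes below 40% GC spread from 0.0864 for SMC6 to 2.99 for RAD21, below SMC1A and NCAPD2.

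The difference between groups also moved with GC content over all genes. The median log2 fold change was 0.13 below 40% GC, 0.08 from 40% to 50% and -0.09 at 50% or above. Below 40% GC, 11.3% of genes were called higher and 4.32% lower, and of the 6 tested genes of the list in that range other than SMC5, 2 were called higher (SMC4 and NCAPG). With a smooth GC trend removed from each library, the log2 fold changes were 0.59 for SMC4 (edgeR adjusted p 0.010), 0.58 for NCAPG (edgeR adjusted p 0.018) and 0.31 for SMC1A (edgeR adjusted p 0.018), and that of SMC5 was 0.62. The 3 calls held in that analysis.

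Genes of S phase rose in the same comparison, while those of G2 and mitosis moved in both directions. Of 16 genes of S phase, 13 were called higher and 0 lower by edgeR's test, beside 9.44% and 11.6% of all genes. Their median log2 fold change was 0.32, with none of the 16 below 0. With library size alone as the scaling, 9 were called higher, beside 733 of the 14133 genes tested. RRM2 and MCM2, which serve nucleotide supply and the replicative helicase, had log2 fold changes of 0.50 (SE 0.07) and 0.46 (SE 0.07), and MCM3 and MCM6, further helicase subunits, had 0.50 (SE 0.07) and 0.54 (SE 0.09). The 15 tested genes of G2 and mitosis had a median of 0.03, with 9 values above 0 and 6 below. Of these 15, 2 were called higher and 1 lower, beside 9.44% and 11.6% of all genes. The higher ones were MKI67, a coat protein of mitotic chromosomes (0.80, SE 0.11), and CENPF, a kinetochore protein (0.71, SE 0.16), and the lower one was the cyclin CCNB2 (-0.22, SE 0.07). The CCNB2 call was lost in 4 of the 8 other analyses of the 4 libraries, DESeq2 and the replicate block among them, and without OE-WT replicate 1 or CTRL replicate 2, where its value was -0.16. The part of the cell cycle in the values of SMC4, NCAPG and SMC1A was not tested.

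Ratios inside a library do not depend on its scaling. They are given as log2 ratios of the levels per kilobase, as a description, since 2 libraries against 2 cannot pass an exact test. STAG2 over STAG1 was -1.15 and -1.01 under OE-WT, against -0.21 and -0.16 under CTRL. The groups were separate, and STAG2 stood at 0.473 of STAG1 in OE-WT and 0.882 in CTRL. With the longest transcripts as lengths the means became -0.24 and 0.66, so which paralog was the higher depended on the length used in CTRL, and the difference between groups of -0.90 did not.

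For the condensin ATPases, SMC2 over SMC4 was -0.30 and 0.21 under OE-WT, against 0.35 and 0.34 under CTRL. The difference between groups was -0.39, and it ran from -0.64 to -0.13 with a library left out. NCAPG over NCAPG2, the condensin I subunit over that of condensin II, was -0.72 and -0.57 in OE-WT and -1.17 and -0.94 in CTRL, a difference of 0.41. NCAPD2 over NCAPD3 was 3.22 and 3.06 in OE-WT and 3.37 and 3.25 in CTRL, a difference of -0.17. In these 3 ratios, as in STAG2 over STAG1, the groups did not overlap. For comparison, the CPM of single genes did not overlap for 29.9% of all genes tested, with OE-WT higher, and for 30.2%, with OE-WT lower. The share for ratios was not computed, so nothing is read from the separation alone.

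The other ratios overlapped between groups. SMC1A over SMC3, the partners of 1 ring, was 3.98 and 4.74 in OE-WT and 4.42 and 4.52 in CTRL, so that SMC1A stood 20.5-fold and 22.2-fold above SMC3. With the longest transcripts as lengths, the mean log2 ratios of this pair were 3.25 and 3.37. RAD21 over SMC3 was 3.46 and 4.13 in OE-WT and 3.80 and 4.19 in CTRL. SMC5 over SMC6 was 3.57 and 2.00 in OE-WT and 3.12 and 2.86 in CTRL, with the OE-WT libraries on either side of the CTRL libraries. These wide gaps are between read counts per length and rest on few counts of SMC3 and SMC6. SMC3 and SMC6 had a GC content of 38.1% and 37.6%, against 47.2% for SMC1A, 36.0% for RAD21 and 36.5% for SMC5. Over all tested genes the median level was 1.37 CPM per kilobase below 40% GC and 2.51 from 40% to 50%. The part of GC content in these gaps was not tested.

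**Figure D4:**
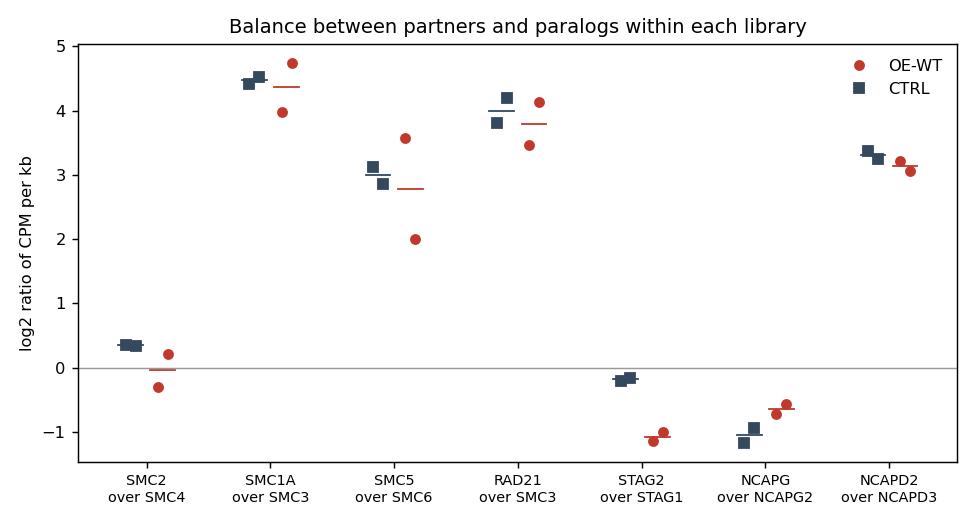
The log2 ratio of the levels per kilobase of exons for 7 pairs of partners or paralogs, with circles for OE-WT libraries, squares for CTRL libraries and short lines at the means. STAG2 over STAG1 is separate between groups by 0.90, while the ratios with SMC3 or SMC6 as the denominator overlap.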

How the data were processed

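RNA sequencing libraries of OE-WT and CTRL cells were compared, 2 per group, each sequenced in 2 lanes that share 1 column of the table. The authors deposited raw read counts per gene. The paper names Cutadapt for trimming, HISAT2 for alignment (GRCh38) and HTSeq for counting, whereas the submitters' processing notes name HISAT2 2.2.1 and featureCounts 2.0.0. The paper describes removal of ribosomal RNA and 3 replicates, and the labels poly(A) selection and 2. The annotation release and strand setting are not given in the sources used here.

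GENCODE release 44 named 57532 of 58302 identifiers. edgeR 4.0.16 in R 4.3.3 was run with its expression filter (minimum count 10, group-aware), TMM factors and the quasi-likelihood test without a block, with Benjamini-Hochberg adjustment. Standard errors are the log2 fold change over the square root of F. A count of 0 allows up to 3 counts, or 0.242 to 0.290 CPM, for counting error only. The 8 other analyses of the 4 libraries used RLE factors, library size only, DESeq2 1.42.0, all genes with a read, a floor of 10 reads in each library, a replicate block and, chosen after seeing the data, a GC or a transcript length trend (lowess, span 0.3) removed per library. Each library was also left out in turn, where the lone library is assumed to vary like the other group. The steps were tested on simulated counts. Those had larger changes than the calls among members and pathway genes, and the same scatter for all genes, so smaller effects were not covered. The genes named are the 10 members, both overexpressed genes, the paralogs, and from each list those with an adjusted p below 0.05, at most 4. Members and lists were chosen with earlier results of these data known. Other subunits and genes with values are named beside them as chosen after their values were seen. Protein features were not used here.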

Additional observations from a re-analysis of the deposited data

How the results depend on the processing

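Without SMC5, the list had 3 called genes in edgeR's test and also with RLE factors, library size only, either filter, the replicate block and the GC and length trends. DESeq2 called 1 (SMC4), and with each library left out the number ran from 1, without CTRL replicate 1, to 5, without OE-WT replicate 2. For the other pathway genes, 6 were called, 2 with DESeq2, and 2 to 7 with a library left out, the lowest without CTRL replicate 1. DESeq2 called 1377 of all genes against 2976, 1376 of them shared, and with a library left out the number ran from 1903 to 2852. The cause of these differences was not tested. With library size only, the median of all genes shifted to -0.08 and the split of calls over all genes went from 1334 higher and 1642 lower to 733 higher and 2451 lower, and the log2 fold changes were 0.62 for SMC4, 0.61 for NCAPG and 0.26 for SMC1A. Same-numbered libraries share only a number: their deviations had a correlation of -0.0681 across genes, and the replicate block gave 2658 calls over all genes and 3 in the list. Among the 10 genes, depth limits SMC6 most, which has 6 to 16 counts and was not tested with the filter. SMC3, with 26 to 51 counts, and SMC5, with 35 to 56, also had few. Single lanes are not separated in the table.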

Other observations

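NCAPD2P1 (chromosome 7, 34750253 to 34752053, minus strand), a processed pseudogene of NCAPD2 chosen after its values were seen, drew 92 and 91 reads under OE-WT, against 38 and 28 under CTRL. OE-WT exceeded CTRL by 1.79 on the log2 scale (SE 0.21, edgeR adjusted p 3.6e-06), beside 0.07 for NCAPD2. Its transcript aligned to NCAPD2 over 1799 bases with 92.3% identity, so some reads of the parent gene may be counted there. Its counts were 5.17% and 5.27% of those of NCAPD2 in OE-WT and 1.70% and 1.43% in CTRL. NPSR1 and NPSR1-AS1, which span the same interval, had 0 counts in all 4 libraries.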
